A study of Mus musculus with 4 samples.

Results

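The 10 genes described here encode leukocyte adhesion molecules. Icam1, Icam2, Vcam1, Sele and Selp make proteins found mainly on the vessel wall and on stromal cells, and Selplg, Itgal, Itgam, Itgb2 and Itga4 make their partners on leukocytes. They were taken by symbol from a single-cell RNA-sequencing data set of perfused whole lung, and all 10 were among its 32285 genes. The lungs came from 4 female FVB/NJ mice, 13 weeks old, all carrying MMTV-PyMT, a transgene that drives the polyoma middle T oncogene in mammary epithelium. At 8 weeks of age 2 mice received a placebo pellet and 2 a pellet of 5 mg tamoxifen made for release over 60 days, and they kept it for 5 weeks. Tamoxifen is a modulator of the oestrogen receptor. Mice without the transgene or without a pellet were not analysed here, so every value below is from a tumour-prone mouse, and the tumour load of the lungs is not given in the sources used here. The comparison asked how much RNA of each gene the endothelial, stromal and immune cells held in each mouse, and whether it differed between tamoxifen and placebo.

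Leukocytes leave the blood in steps. Selectins on the endothelium (E-selectin from Sele, P-selectin from Selp) catch passing cells by sugars carried on PSGL-1, the product of Selplg, and the cells roll. Chemokine signals then switch on integrins, which are pairs of an alpha and a beta chain: LFA-1 (Itgal with Itgb2) and Mac-1 (Itgam with Itgb2) hold to ICAM-1, LFA-1 also to ICAM-2, and VLA-4 (Itga4 with Itgb1) to VCAM-1.

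Each lung was sequenced as its own library, with 32646505 to 37285982 UMIs (counted molecules). After filtering 6676 to 7480 cells per mouse were kept, 28477 in all, and pairs of libraries shared 61 to 74 cell barcodes. Cells were clustered without the 10 genes and without 63 other genes of the adhesion cascade, and clusters were named from marker genes, so each class name carries "-like". Of 30 named classes 22 had at least 20 cells in every mouse and were tested. Lung classes such as alveolar type 2-like and alveolar fibroblast-like cells were found, and no cluster took the name of mammary epithelium or tumour. Neutrophil-like cells were 31.8%, 58.2%, 35.7% and 40.9% of the cells of placebo 1, placebo 2, tamoxifen 1 and tamoxifen 2. Wherever 4 values follow each other below, they stand in that order of mice.

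Levels are given as CPM, the UMIs of a gene summed over all cells of a class in a mouse and scaled per 1000000 UMIs of those cells, and in tested classes that total is multiplied by edgeR's TMM factor for the library. They were compared with edgeR's quasi-likelihood test, and a gene was called at a Benjamini-Hochberg adjusted p under 0.05 over all genes of the class. Every error given with a log2 fold change is a standard error derived from that fold change and edgeR's F statistic, with n = 2 mice per group. With 2 mice against 2 an exact permutation test of a single value cannot go below p = 0.333. In sums over a class, less RNA per cell and fewer cells that express a gene cannot be told apart.

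Across the 22 tested classes 134 of the 220 pairs of gene and class passed the count filter, and edgeR called 0 of them. Over all genes 64 of 140480 such pairs were called, which is 0.0456%. Before adjustment 13 of the 134 pairs had p under 0.05, 10 of them higher and 3 lower with tamoxifen. Over all genes and classes 3.95% had such a p. DESeq2 called 1 pair, Vcam1 in mesothelial-like cells. That pair also had the lowest adjusted p in edgeR, 0.0868, and the next had 0.551. Both tamoxifen mice lay above both placebo mice in 25 of the 134 pairs and below both in 19. Over all genes and classes the shares were 16.1% and 16%.

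**Figure D1:**
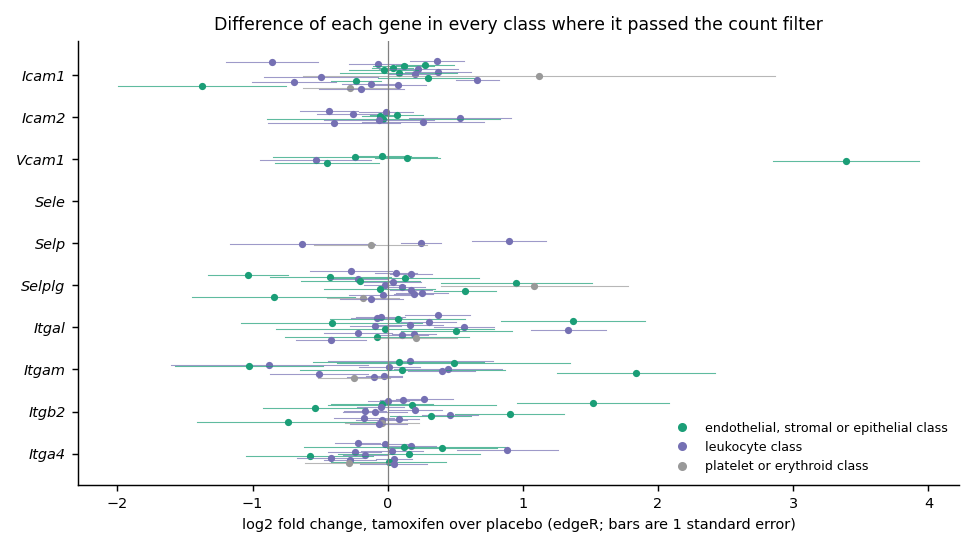
Each point is the log2 fold change of 1 gene in 1 class where it passed the count filter, tamoxifen over placebo. The bar is 1 standard error derived from edgeR's F statistic. Green marks endothelial, stromal and epithelial classes, purple leukocyte classes and grey platelet or erythroid classes. Most points lie within 1 of 0, Vcam1 in mesothelial-like cells stands at 3.39, and Sele has no point because it passed the filter in no class.

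Promoters of 5 of the 10 genes were in the RefSeq table used (build GRCm38.p6). Those of Icam1, Sele and Selp are shown because these 3 ligand genes are known targets of inflammatory signalling through NF-kappaB and their levels below ranged from broad (Icam1) to almost absent (Sele). The 250 bases before each gene's start in RefSeq are given 5' to 3' on the plus strand, with capitals on every match to GGNNNTTCC, a loose form of the NF-kappaB site, on either strand. For Icam1 that start lies 45 bases before the one in GENCODE given below, and for Sele and Selp the starts are the same. The windows lie at chr9:21015690-21015939, chr1:164047984-164048233 and chr1:164115014-164115263.
Icam1: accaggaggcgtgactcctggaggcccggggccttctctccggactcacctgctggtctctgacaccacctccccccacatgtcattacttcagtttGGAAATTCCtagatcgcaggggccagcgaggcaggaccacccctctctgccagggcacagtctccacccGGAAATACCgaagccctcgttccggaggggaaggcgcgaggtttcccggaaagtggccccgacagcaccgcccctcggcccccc
Sele: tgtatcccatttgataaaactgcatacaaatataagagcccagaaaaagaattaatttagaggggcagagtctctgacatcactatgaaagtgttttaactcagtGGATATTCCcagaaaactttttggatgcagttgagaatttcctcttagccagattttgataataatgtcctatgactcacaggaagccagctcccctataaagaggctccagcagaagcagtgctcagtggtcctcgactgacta
Selp: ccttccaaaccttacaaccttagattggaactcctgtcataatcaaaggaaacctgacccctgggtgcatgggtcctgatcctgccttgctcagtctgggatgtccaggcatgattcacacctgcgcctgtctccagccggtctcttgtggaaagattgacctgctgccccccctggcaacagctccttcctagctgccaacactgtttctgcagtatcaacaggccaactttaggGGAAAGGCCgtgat

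In Icam1 the match that begins 153 bases before the start reads GGAAATTCC and fits the pattern on both strands, and one read GGAAATACC on the plus strand, a match of the opposite strand, begins 84 bases before the start. Sele held GGATATTCC 145 bases before the start, and Selp held GGAAAGGCC as read on the plus strand, a match of the opposite strand, 14 bases before it. The promoters of Itgam and Itga4 held no match in this window. The pattern was in 15.7% of 32851 promoters of this length, and a match describes letters only.

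Icam1 (ENSMUSG00000037405, chr9:21015985-21028817, plus strand, build GRCm38 here and below) had UMIs in all 30 classes. Among the tested classes it was highest in aerocyte endothelial-like cells, which form the thin capillaries facing the air spaces, at 466, 449, 582 and 408 CPM. Conventional dendritic-like cells held 318, 463, 432 and 459 CPM, and the ranges of every neighbouring pair among the first 9 classes overlapped. General capillary endothelial-like cells held 179.7, 282, 181 and 405 CPM, with tamoxifen 2 highest. In neither whole class did the groups separate. The log2 fold change was 0.12 ± 0.23 in aerocyte-like cells (edgeR adjusted p = 0.9995) and 0.30 ± 0.37 in general capillary-like cells (adjusted p = 0.9998). Some cells of the capillary classes carried genes of another class: the 7 neutrophil markers, summed, stood at 1756, 19551, 2631 and 14229 CPM in aerocyte-like cells. The cells of all endothelial classes were then clustered again together, in a step added after seeing the data. In this split 198 cells were named aerocyte-like. They are not a subset of the class: in placebo 2 they held 283 Icam1 UMIs, against 203 in the class. In these cells Icam1 stood at 378, 495, 731 and 569 CPM, so that both tamoxifen mice lay above both placebo mice. In another set of cells, the original class without those of subclusters set aside for genes of another class, the log2 fold change was 0.40 (edgeR adjusted p = 0.9999).

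The highest level of all was in alveolar type 1-like cells, the flat cells of the air side, at 1378, 902, 1234 and 898 CPM. This class held 12 to 26 cells per mouse and was not tested, and the groups overlapped. The 7 neutrophil marker genes, summed, stood at 17515 to 28485 CPM there, against 90091 to 131225 CPM in neutrophil-like cells, and their part in the Icam1 level was not tested. Alveolar type 2-like cells held 184, 178, 197 and 154 CPM.

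In stromal classes Icam1 was lower. Alveolar fibroblast-like cells held 165, 135, 161 and 147 CPM and mesothelial-like cells 189.7, 141, 140 and 143 CPM, with overlapping groups in both. In adventitial fibroblast-like cells, which surround vessels and airways, it stood at 113, 98.3, 145 and 114 CPM. Both tamoxifen mice lay above both placebo mice there by a small margin (log2 fold change 0.28 ± 0.22, edgeR adjusted p = 0.9997). Pericyte or smooth muscle-like cells held 25.7, 36.8, 4.51 and 21.5 CPM from 3 to 31 UMIs, lower in both tamoxifen mice (adjusted p = 0.9998).

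Neutrophil-like cells held 43.5%, 69.8%, 47.5% and 45.9% of all Icam1 UMIs in kept cells. As a class they stood at 494, 309, 399.7 and 335 CPM, with placebo 1 highest and placebo 2 lowest (log2 fold change -0.12 ± 0.21, edgeR adjusted p = 1). The level was uneven within the class: clusters 65, 5, 4 and 11 held 814 to 1228 CPM, and cluster 29, led by S100a8 and Retnlg, 34.1 CPM. Leading genes of the high clusters included Gadd45b, Ptgs2, Csf1 and Saa3, genes of activated or stressed cells, and Icam1 was itself among the leading genes of 3 of them although clustering did not use it. These 4 clusters, picked after their levels were seen, held 34.1%, 27.1%, 23.1% and 21.7% of the neutrophil-like cells, lower in both tamoxifen mice, and the share has no test. Within them Icam1 stood at 1216, 991, 1152 and 969 CPM, and in the other neutrophil-like clusters at 238, 172, 239 and 205 CPM.

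In the 4 high clusters the groups overlapped by level, with placebo 1 highest and tamoxifen 2 lowest. After thinning each cell to 1000 UMIs, 19.4% to 25.5% of neutrophil-like cells and 3.91% to 5.38% of B cell-like cells had an Icam1 UMI. Without thinning the shares were 32% to 35.4% and 10.2% to 24.2%, at median depths of 2112 to 3758 and 2484 to 4036 UMIs.

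**Figure D2:**
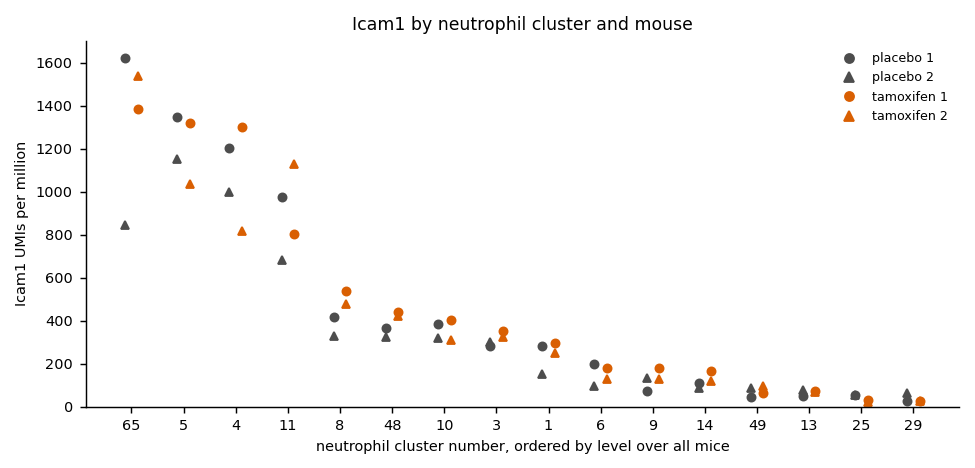
Icam1 CPM in each of the 16 neutrophil-like clusters, ordered by level over all mice, with 1 point per mouse (grey placebo, orange tamoxifen). The first 4 clusters stand at 681 CPM or more in every mouse and the others at 537 or less.

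Among other leukocytes Icam1 had an unadjusted p under 0.05 in 3 classes, and none was called. Interstitial macrophage-like cells held 126, 128, 185 and 218 CPM, higher in both tamoxifen mice (log2 fold change 0.66 ± 0.16, edgeR adjusted p = 0.715). Natural killer-like cells held 208, 338, 195 and 114 CPM from 11 to 53 UMIs, lower in both (-0.70 ± 0.31, adjusted p = 0.697). CD4 T cell-like cells held 22.6, 42.8, 15.6 and 18.9 CPM from 19 to 34 UMIs, also lower in both (-0.85 ± 0.34, adjusted p = 0.9998). For CD4 T cell-like cells the log2 fold change was -0.33 with doublets kept, -0.40 without placebo 2 and -1.33 without placebo 1. The last 2 fits had 1 placebo mouse each. The 7 neutrophil markers, summed, stood at 131.5, 2076, 257.1 and 66.2 CPM in CD4 T cell-like cells, highest in placebo 2, as Icam1 was. Their part was not tested. Whether the effect differed between neutrophil-like and CD4 T cell-like cells was tested as an interaction over 10422 genes, of which edgeR called 0%. For Icam1 the difference was 0.74 ± 0.39 (unadjusted p = 0.0687, adjusted p = 1). Without placebo 1, which leaves placebo 2 as the only placebo mouse, it was 1.62.

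Icam2 (ENSMUSG00000001029, chr11:106377656-106388075, minus strand) was foremost an endothelial gene; ICAM-2 is found on resting endothelium. Aerocyte-like cells held 1930, 2021, 2186 and 1948 CPM and general capillary-like cells 1369, 1359, 1252 and 1378 CPM, and these ranges overlapped neither each other nor any other tested class. Large-vessel or lymphatic endothelial-like cells held 648, 774, 487 and 611 CPM from 15 to 38 cells per mouse and were not tested. The groups overlapped in both capillary classes. In the 198 aerocyte-like cells of the split Icam2 stood at 2356, 2247, 2726 and 2747 CPM, higher in both tamoxifen mice. Of these cells 146 lay in a subcluster itself led by Igkv1-117 and Jchain, genes of other cells. With the subclusters set aside for genes of another class left out of the original class, the log2 fold change was 0.10 (edgeR adjusted p = 0.9999). Over the whole classes the log2 fold change was 0.066 ± 0.20 in aerocyte-like and -0.055 ± 0.14 in general capillary-like cells (edgeR adjusted p = 0.9995 and 0.9998). Captured aerocyte-like cells numbered 77, 67, 43 and 39 and general capillary-like cells 175, 139, 116 and 72, fewer in both tamoxifen mice. Yield in dissociation was not measured, and numbers in the tissue cannot be told from these. Among leukocytes B cell-like cells held 55, 50.9, 44.5 and 32.5 CPM, lower in both tamoxifen mice (-0.43 ± 0.21, adjusted p = 0.9999).

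Vcam1 (ENSMUSG00000027962, chr3:116109949-116129688, minus strand) was highest in fibroblasts. Alveolar fibroblast-like cells held 524, 328, 525 and 418 CPM and adventitial fibroblast-like cells 270.4, 369.8, 296 and 322 CPM, both above the range of every other tested class. Alveolar fibroblast-like cells gave 71.2%, 52.7%, 57.7% and 50.4% of the Vcam1 UMIs in kept cells. In neither class did the groups separate. The log2 fold changes were 0.15 ± 0.24 and -0.042 ± 0.21 (edgeR adjusted p = 0.9989 and 0.9997).

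Capillary endothelium held less Vcam1. Aerocyte-like cells stood at 93.7, 28.7, 35.7 and 68.8 CPM and general capillary-like cells at 9.19, 10.6, 21.3 and 5.7 CPM, the latter from 2 to 16 UMIs. In the split of the endothelial cells Vcam1 was highest in 42 venous endothelial-like cells led by Slc6a2, Car8 and Vwf, at 294 CPM over all mice and with a UMI in 50% of cells. The same cells held 523 CPM of Icam1. They numbered 15, 9, 15 and 3, too few to test, and their Vcam1 UMIs 28, 16, 33 and 31, or 290, 150.3, 236 and 1304 CPM, so that tamoxifen 2, with 3 cells, was highest and the groups overlapped. The whole large-vessel or lymphatic endothelial-like class, which was not tested, stood at 157, 84.5, 185 and 415 CPM, higher in both tamoxifen mice. Of the 198 aerocyte-like cells of that split 4.04% had a Vcam1 UMI. Interstitial macrophage-like cells held 71.8, 205, 80.8 and 108 CPM, placebo 2 highest. In B cell-like cells, which should lack the gene, 0% to 0.355% of cells per mouse had a UMI.

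Mesothelial-like cells, the covering layer of the lung, gave the lowest adjusted p of any of the 10 genes. Vcam1 stood at 2.55, 4.31, 46.7 and 24.5 CPM there, from 3, 3, 72 and 60 UMIs. Both tamoxifen mice were higher, with a log2 fold change of 3.39 ± 0.54, an unadjusted p of 0.000105 and an edgeR adjusted p of 0.0868, which misses the threshold. EdgeR called 0.0514% of the 9729 genes of the class. With DESeq2 the adjusted p was 0.00972. With the replicate number as a block edgeR gave 1.36e-10, and with the numbers crossed 8.42e-08. The labels do not tie the numbers to pairs of mice, so both values rest on assumed pairs. Leaving out placebo 1, placebo 2 or tamoxifen 2 gave log2 fold changes of 2.98, 3.72 and 3.81, each with 1 mouse in a group. Leaving out tamoxifen 1 gave 2.90, and the gene was not called there. A Vcam1 UMI was found in 3.37%, 4.65%, 18.8% and 9.31% of the cells, and after thinning to 1000 UMIs in 0%, 0%, 2.96% and 1.83%, near the level of 1 UMI.

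The difference lay mostly in 1 cluster. Cluster 43, led by Cytl1, Enpp2, Fndc1 and Cxcl13, also had Wt1, a mesothelial gene, and Dcn, a fibroblast gene, among its leading genes. It held 15, 9, 75 and 102 cells, 16.9%, 20.9%, 52.1% and 41.3% of the class, so different clusters made up most of the class in placebo 1 and 2 than in tamoxifen 1. Within it Vcam1 stood at 6.66, 0, 109 and 76.5 CPM from 1, 0, 65 and 45 UMIs. In the other mesothelial-like cells, led by Msln and Upk3b, it stood at 1.96, 4.43, 7.55 and 7.74 CPM. Without cluster 43 the gene did not pass the count filter and was not tested.

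The 7 adventitial fibroblast markers, summed, stood at 7564, 12327, 9329 and 9858 CPM in cluster 43 and 7426, 6313, 6075 and 7595 CPM in the rest of the class. The 7 mesothelial markers stood at 4568, 4081, 3259 and 3444 CPM in the cluster and 10211, 9368, 9796 and 9662 CPM in the rest. None of either list was at 0 in all mice, and their part in the Vcam1 difference was not tested.

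**Figure D3:**
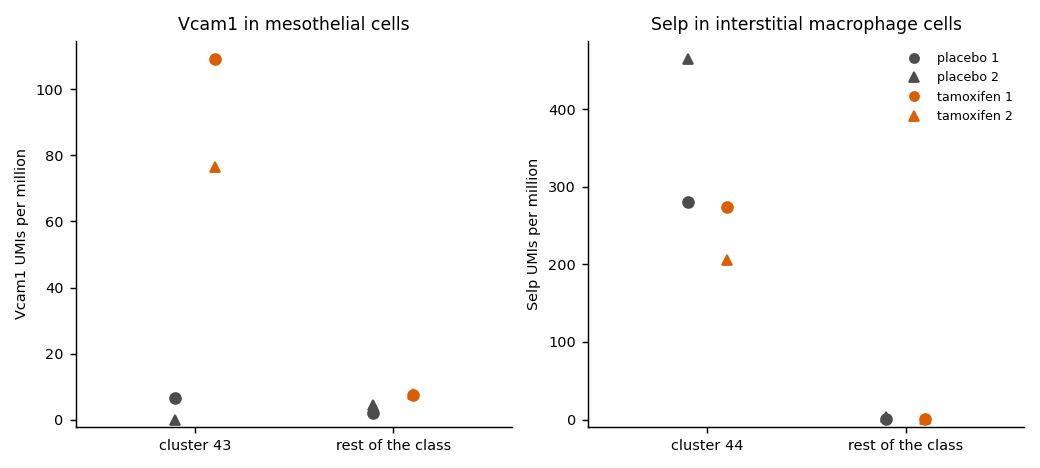
Left, Vcam1 CPM in cluster 43 and in the rest of the mesothelial-like class; right, Selp in cluster 44 and in the rest of the interstitial macrophage-like class; 1 point per mouse (grey placebo, orange tamoxifen). Vcam1 in cluster 43 is higher in both tamoxifen mice, and nearly all Selp of the macrophage-like class is in cluster 44, at 206 to 465 CPM, lower in both tamoxifen mice.

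In the mesothelial-like class 8 of the 10 genes passed the filter, 5 were higher and 1 lower in both tamoxifen mice, against 18.4% and 17.4% of all genes. Selplg and Itgam were among the former, at 34, 38.8, 60.3 and 47.8 and 4.25, 1.44, 9.07 and 13.5 CPM (edgeR adjusted p = 0.723 and 0.551). The 7 neutrophil markers, summed, stood at 972, 2011, 2590 and 2244 CPM in the class, and their part was not tested.

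Whether the tamoxifen effect differed between endothelium and stroma was tested as an interaction between general capillary-like and alveolar fibroblast-like cells over 10761 genes, of which edgeR called 0%. For Icam1, which passed the count filter in both classes, the difference was 0.23 ± 0.42 on the log2 scale, with an adjusted p of 1. Icam2 passed it in the capillary-like class alone of these and Vcam1 in the fibroblast-like class alone. In the joint fit their differences were 0.041 ± 0.84 and 0.42 ± 0.51 (edgeR unadjusted p = 0.963 and 0.427). Both rest on few UMIs in the other class.

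Sele (ENSMUSG00000026582, chr1:164048234-164057677, plus strand) was almost absent. E-selectin is made by endothelium under inflammatory signals. Over all 28477 cells it had 30 UMIs in 26 cells, 9, 8, 4 and 9 UMIs per mouse. General capillary-like and aerocyte-like cells had 0 in 502 and 226 cells, which allows up to 0.944 and 2.03 CPM (3 counts of the total, counting error only). Large-vessel or lymphatic endothelial-like cells had 3, 0, 1 and 1 UMIs and neutrophil-like cells 4, 8, 2 and 4. Pericyte or smooth muscle-like cells had 0, 0, 0 and 4, all of them in cluster 71, which held 3 cells of tamoxifen 2. Of those in large-vessel or lymphatic cells, 3 lay in an endothelial subcluster of 21 cells led by Fabp4, Rbp7, Rgcc and Ackr1, the last a gene of venules. No difference between groups was detectable at this depth.

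Selp (ENSMUSG00000026580, chr1:164115264-164150026, plus strand) makes P-selectin, which platelets and the endothelium of larger vessels store. In large-vessel or lymphatic endothelial-like cells it stood at 102, 0, 105 and 54.8 CPM from 26, 0, 26 and 7 UMIs. The subcluster led by Fabp4 gave 17, 0, 16 and 0 UMIs from 5, 1, 13 and 2 cells. Capillary classes held at most 13.3 CPM in any mouse. Platelet or megakaryocyte-like cells held 52.9, 58.6, 62.5 and 42.9 CPM, with overlapping groups (log2 fold change -0.12 ± 0.42, edgeR adjusted p = 0.938). Cluster 39 gave 60, 30, 44 and 92 of these cells and cluster 45 gave 33, 23, 43 and 81. Cluster 39 scored 2.66 for platelet or megakaryocyte markers and 1.21 for neutrophil markers. The class also held Selplg, at 1117, 1359, 978 and 1198 CPM. The part of neutrophil RNA in its Selp was not tested.

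The tested class with the most Selp was interstitial macrophage-like, at 56.1, 61.7, 140.3 and 78.4 CPM. Both tamoxifen mice were higher (log2 fold change 0.90 ± 0.27, edgeR adjusted p = 0.919). Without tamoxifen 2 it was 1.25 with an adjusted p of 0.0261, and without tamoxifen 1 it was 0.42 with an adjusted p of 0.9999. Of the class's Selp UMIs 98.9%, 94.7%, 99.7% and 99.4% came from cluster 44, led by Prg4, Fcna, Retnla and Alox15. No interstitial macrophage marker was among its leading genes. The cluster held 40, 9, 77 and 69 cells, 16.3%, 7.14%, 35.8% and 22.9% of the class. Within it Selp stood at 281, 465, 274 and 206 CPM, so that both tamoxifen mice lay below both placebo mice, the opposite order to the class as a whole. Outside it Selp was at most 3.71 CPM.

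Cluster 44 also held most of the Icam2 and Itgam of the class. Icam2 stood at 722, 685, 469 and 277 CPM in it, lower in both tamoxifen mice, and at most 8.85 CPM outside. Itgam stood at 891, 962, 646 and 422 CPM in it, also lower in both, and at 84.5 to 103 CPM outside. Icam1 stood at 25.5, 71, 176 and 227 CPM in it, higher in both tamoxifen mice. With 9 cells in placebo 2 the cluster was not tested. The 6 platelet or megakaryocyte markers, summed, stood at 1987 to 3643 CPM in it and 1073 to 2076 CPM in the rest, and the 6 interstitial macrophage markers at 12782 to 13821 and 19122 to 21258 CPM. Their part was not tested. Over the class 9 of the 10 genes passed the filter, 5 were higher and 1 lower in both tamoxifen mice, against 17.2% and 16.4% of all genes. Without cluster 44 the log2 fold change of Icam1 was 0.44 (edgeR adjusted p = 0.9992).

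Neutrophil-like cells also held Selp, at 37.8, 47.2, 50.3 and 51.4 CPM, and each of their 16 clusters had it, at 20.1 to 75.1 CPM. A UMI was present in 6.93% to 16.2% of them, and after thinning in 3.51% to 4.63%. In B cell-like cells, which should lack the gene, the shares were 0% to 0.709% and, after thinning, 0% in each mouse. Both tamoxifen mice lay above both placebo mice by a small margin (log2 fold change 0.25 ± 0.15, edgeR adjusted p = 1).

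**Figure D4:**
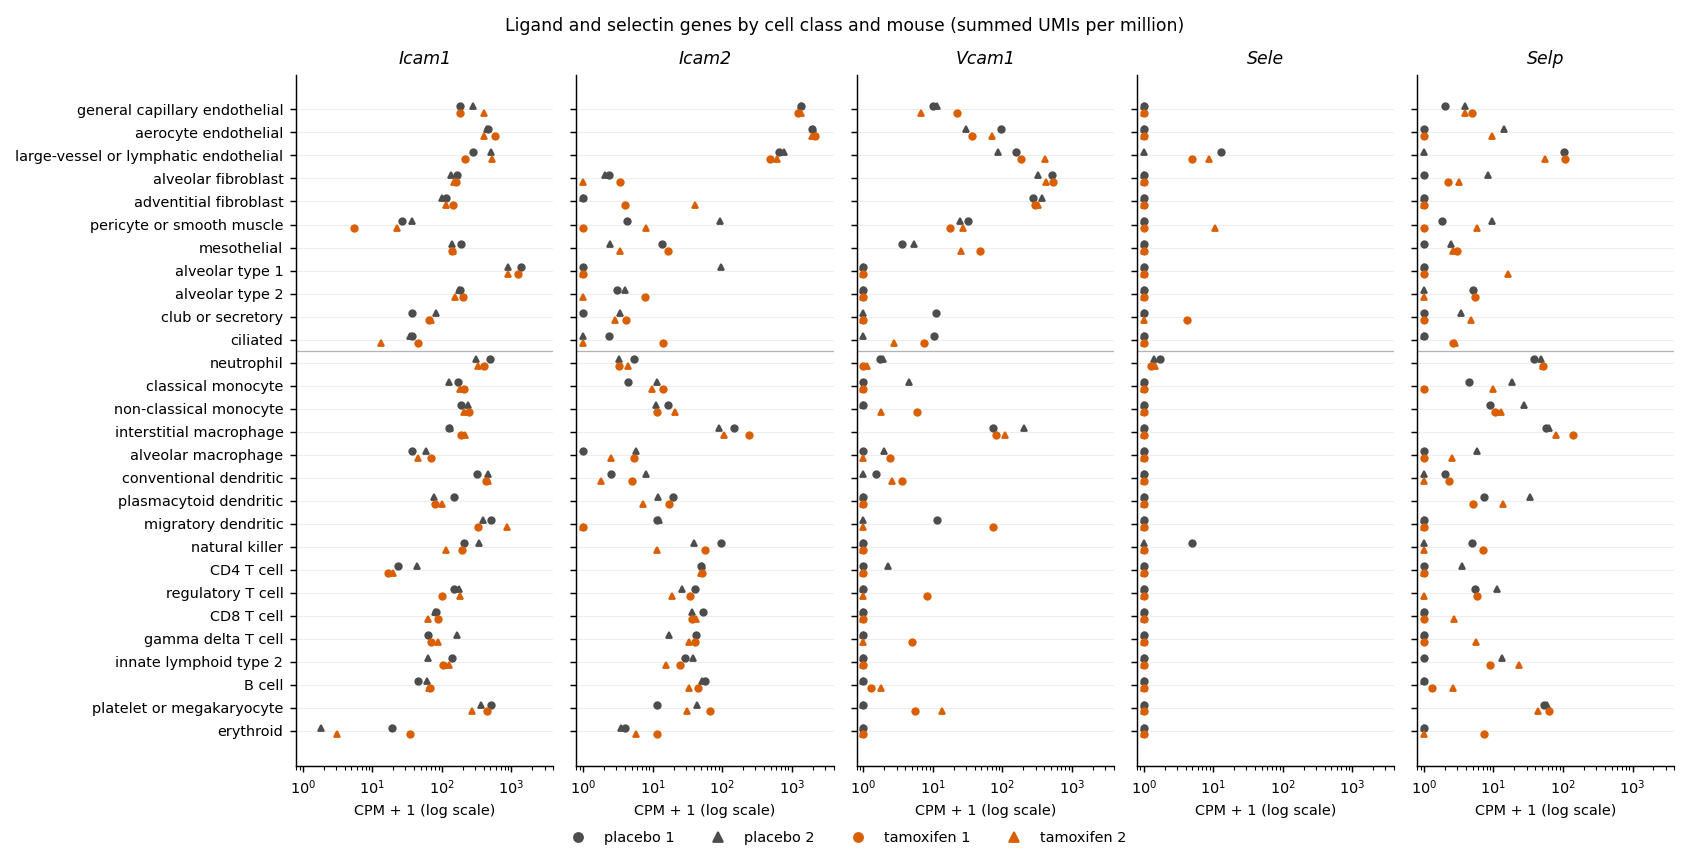
CPM + 1 on a log scale for Icam1, Icam2, Vcam1, Sele and Selp in 28 of the 30 classes (basophil or mast and cardiac muscle are not drawn), with 1 point per mouse, grey placebo and orange tamoxifen; a line parts the endothelial, stromal and epithelial classes from the others. Icam1 is broad, Icam2 stands out in the 3 endothelial classes, Vcam1 in the 2 fibroblast classes, and Sele is at or near 0 in most.

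Selplg (ENSMUSG00000048163, chr5:113818536-113832644, minus strand) was highest in natural killer-like cells, at 1765, 1455, 1875 and 1968 CPM, and neutrophil-like cells, at 1681, 1576, 1882 and 1836 CPM. In both the tamoxifen mice lay above the placebo mice, by 0.25 ± 0.19 and 0.19 ± 0.15 on the log2 scale, and neither was called (edgeR adjusted p = 0.96 and 1). Gamma delta T cell-like cells held 1054, 1296, 1136 and 1384 CPM. CD8 T cell-like cells held 820.1, 803, 886 and 943 CPM and CD4 T cell-like cells 551, 615, 533 and 683 CPM. B cell-like cells held 78.9, 137, 69.3 and 108 CPM. Neutrophil-like cells gave 57.4%, 84.1%, 67.1% and 68.1% of all Selplg UMIs in kept cells. A Selplg UMI was present in 89.8% to 95.9% of them.

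Outside leukocytes Selplg is given here beside neutrophil markers. In alveolar fibroblast-like cells it stood at 27.3, 108, 70.5 and 73.7 CPM and the 7 neutrophil markers, summed, at 531, 6823, 1753 and 2565 CPM, both highest in placebo 2. In alveolar type 2-like cells it stood at 74.4, 241, 115 and 154 CPM with the markers at 8328, 10600, 4188 and 6301 CPM. Of the endothelial cells, 180 lay in subclusters led by genes of another class, such as S100a8 and S100a9, and held 523 Selplg UMIs. The 198 aerocyte-like cells of the split held 7 and the 107 general capillary-like ones 8. Their leading genes also included some of other cells, such as Jchain in 146 of the 198 and Ager in the 107. In adventitial fibroblast-like cells Selplg stood at 56.7, 49.2, 30.2 and 22.4 CPM, lower in both tamoxifen mice (-1.03 ± 0.30, edgeR adjusted p = 0.626), with the markers at 684, 1495, 844 and 1516 CPM. Of the 4 genes that passed the filter in that class 2 were higher and 1 lower in both tamoxifen mice, against 16.8% and 16.5% of all genes. The part of the neutrophil markers was not tested. An unadjusted p under 0.05 was also found for Itgb2 in adventitial fibroblast-like cells, at 11.1, 3.93, 34.7 and 15.8 CPM (1.52 ± 0.56, adjusted p = 0.912), and for Itgal in alveolar fibroblast-like cells, at 2.73, 8.81, 13.9 and 14.3 CPM (1.37 ± 0.53, adjusted p = 0.9989).

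The 2 alpha chains that pair with Itgb2 led in different classes. Itgal (ENSMUSG00000030830, chr7:127296260-127335138, plus strand), the LFA-1 chain, was highest in non-classical monocyte-like cells, which patrol the vessel wall, at 494, 557, 577 and 553 CPM, above the range of every other tested class. Natural killer-like cells held 380.4, 312, 298 and 302 CPM and classical monocyte-like cells 219.7, 347, 275 and 357 CPM. The log2 fold change was 0.11 ± 0.19 in the first class and -0.22 ± 0.25 in the second (edgeR adjusted p = 0.9998 and 0.9952). Gamma delta T cell-like cells held 162, 153, 228 and 241 CPM, higher in both tamoxifen mice (0.57 ± 0.22, adjusted p = 0.738). Interstitial macrophage-like cells held 14.5, 15.4, 45 and 30.6 CPM from 19 to 99 UMIs, also higher in both (1.34 ± 0.28, adjusted p = 0.575). Before adjustment the edgeR p was 0.0239 in the former and 0.00129 in the latter. The latter class includes cluster 44, described above, with 40, 9, 77 and 69 cells. How Itgal was divided between that cluster and the rest is not given here.

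Itgam (ENSMUSG00000030786, chr7:128062640-128118491, plus strand), the Mac-1 chain, was highest in neutrophil-like cells, at 319, 337, 328 and 316 CPM, nearly equal between mice. Non-classical monocyte-like cells held 249.6, 308, 284 and 237 CPM and the interstitial macrophage-like class 242, 211, 376 and 222 CPM. The groups overlapped in all 3 classes, with log2 fold changes of -0.027 ± 0.14, -0.10 ± 0.20 and 0.40 ± 0.25 (edgeR adjusted p = 1, 0.9998 and 0.986). The annotation has a protein-coding gene, Gm49368, across Itgam on the same strand, and how reads were split between them is not given in the sources used here.

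Itgb2 (ENSMUSG00000000290, chr10:77530252-77565708, plus strand), the beta chain of both, was highest in non-classical monocyte-like cells, at 699, 752, 685 and 721 CPM, and natural killer-like cells, at 761, 734, 652 and 677 CPM, and these ranges overlapped. Neutrophil-like cells held 442, 512, 508 and 503 CPM, with placebo 1 lowest. The log2 fold changes were -0.045 ± 0.19, -0.17 ± 0.22 and 0.084 ± 0.14, none called (edgeR adjusted p = 0.9998, 0.9952 and 1). In general capillary-like cells Itgb2 stood at 15.3, 12.5, 21.3 and 34.2 CPM from 12 to 16 UMIs.

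Itga4 (ENSMUSG00000027009, chr2:79255426-79333123, plus strand), the VLA-4 chain and partner of VCAM-1, was highest in natural killer-like cells, at 380.4, 474, 310.5 and 323 CPM. Non-classical monocyte-like cells held 308, 350.4, 277 and 266 CPM and regulatory T cell-like cells 268, 176, 244 and 223 CPM. In the first 2 classes both tamoxifen mice were lower, with log2 fold changes of -0.42 ± 0.25 and -0.28 ± 0.19, and neither was called (edgeR adjusted p = 0.912 and 0.9998). Neutrophil-like cells held 117, 103, 112 and 114 CPM. Alveolar macrophage-like cells held 11, 16.4, 27.5 and 24.3 CPM from 9 to 19 UMIs, higher in both tamoxifen mice (0.88 ± 0.37, unadjusted p = 0.0363, adjusted p = 0.9997). B cell-like cells held 185, 166, 139 and 163 CPM, lower in both (-0.22 ± 0.17, adjusted p = 0.9999).

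Counted by gene over the tested classes where it passed the filter, the groups did not overlap in 4 and 3 of 22 for Icam1, 0 and 1 of 10 for Icam2, 1 and 0 of 6 for Vcam1 and 2 and 0 of 4 for Selp. Among the leukocyte genes the counts were 6 and 1 of 22 for Selplg, 6 and 2 of 19 for Itgal, 1 and 3 of 14 for Itgam, 4 and 3 of 20 for Itgb2 and 1 and 6 of 17 for Itga4. In each the first number is of classes higher and the second of classes lower in both tamoxifen mice. Over all pairs of gene and class 16.1% were higher and 16% lower in both, and all classes came from the same 4 mice.

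By class, natural killer-like cells had 6 genes past the filter, of which 5 were lower and 1 higher in both tamoxifen mice, against 18% and 17% of all genes. EdgeR called 0.758% of all genes in that class, the highest share of any class. The median log2 fold change of the 6 was -0.32, against 0.0032 over all genes. The class held 96, 38, 50 and 44 cells, the neutrophil markers in it stood at 4973, 12427, 4746 and 1675 CPM, and their part was not tested. In neutrophil-like cells 8 genes passed, 2 higher and 0 lower in both tamoxifen mice, against 12.8% and 16.7% of all genes. In aerocyte-like cells 8 passed and the groups separated in 0, against 15.1% and 14.7%. In the 198 cells described above, a different set of cells, Icam1, Icam2 and Vcam1 were higher in both tamoxifen mice. Selplg, Itgam and Itga4 were lower in both there. Of these, Vcam1, Selplg, Itgam and Itga4 rested on 0 to 8 UMIs per mouse. The share over all genes is not given for these cells. General capillary-like cells had 7, with 1 higher and 0 lower, against 17.3% and 17%. Alveolar fibroblast-like cells had 7, with 1 higher and 0 lower, against 15% and 15.5%.

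The 63 other genes of the cascade, among them glycosyltransferases, junction proteins, further integrin chains and proteases that shed them, gave 700 pairs of gene and class past the filter. EdgeR called 0 and DESeq2 0 of them. Before adjustment 28 had p under 0.05, and 125 were higher and 91 lower in both tamoxifen mice. Over all genes and classes the shares were 3.95% for such a p and 16.1% and 16% for the 2 orders. The lowest adjusted p, 0.267, was that of Itgae, the CD103 chain, in general capillary-like cells, at 1.02, 0, 16 and 25.7 CPM from 1, 0, 12 and 9 UMIs. Its partner chain Itgb7 stood at 17.4, 2.88, 25.3 and 48.5 CPM there. The 6 CD8 T cell markers, summed, stood at 24.8, 5.53, 61.8 and 57.6 CPM, higher in both tamoxifen mice, and their part was not tested.

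The rule for naming took 28 pairs of other cascade gene and class, 18 higher and 10 lower in both tamoxifen mice, with log2 fold changes from -1.55 to 4.91. Among them Mcam, a junction protein, stood at 132, 142, 239 and 215 CPM in aerocyte-like cells (log2 fold change 0.73 ± 0.21, edgeR adjusted p = 0.9995). Aoc3, the vascular adhesion protein VAP-1, stood at 11.1, 3.93, 54.4 and 21 CPM in adventitial fibroblast-like cells (2.09 ± 0.58, adjusted p = 0.597). It was called with the replicate number as a block (edgeR adjusted p = 0.000354) but not with the numbers crossed. Pecam1, the endothelial junction gene, stood at 67.2, 91, 30 and 21.5 CPM in pericyte or smooth muscle-like cells (-1.55 ± 0.32, adjusted p = 0.828), where the 6 general capillary markers, summed, stood at 133, 238, 86.3 and 90.8 CPM. The markers were lower in both tamoxifen mice too, and their part was not tested.

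Genes outside the lists with the pattern most like a member's were found by Pearson's r of mean log2(CPM + 1) over the 22 tested classes, which share libraries and depth. Vcam1 was most like Olfml3 (0.945) and Tslp (0.930), and Icam2 like Impdh1 (0.889) and Calcrl (0.869). Selp was most like C5ar1 (0.913), a complement receptor of myeloid cells, and Cxcl2 (0.899), a chemokine. Itgal was most like Ptprc (0.959), the leukocyte gene CD45, as was Itga4 (0.885). Itgb2 was most like Cyth4 (0.966), Itgam like Tlr13 (0.944) and Selplg like Ipcef1 (0.948). The best likeness of Icam1 was 0.843, with Pxn, which encodes paxillin, and that of Sele, with its few UMIs, 0.819.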

How the data were processed

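The deposited values are raw counts of UMIs by gene and cell barcode, with 1 library of 10x 5' chemistry per mouse. Per the submitters' processing notes they were made with Cell Ranger 8.0.1 on build mm10, while the file headers name an older version of that tool. No step of the authors beyond counting is given in the sources used here.

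Barcodes under 250 genes or over 15% mitochondrial UMIs were dropped, and those with a Scrublet doublet score of 0.25 or more were removed, since the automatic threshold marked almost no cells in 2 libraries. With scanpy 1.11.5 on Python 3.11.15, cells were clustered on 2000 variable genes, 40 components and 15 neighbours by Leiden (leidenalg 0.10.2, resolution 4), with the adhesion genes left out. Of 72 clusters 61 were named by marker lists and 11 stayed unnamed. For each class the counts of a mouse's cells were added up, and these sums went into edgeR 4.0.16 (quasi-likelihood F test, TMM, filterByExpr) in R 4.3.3. The fits were checked on simulated large changes in well-counted genes. That check does not show whether smaller changes or changes in sparse genes would be called. Interactions of 2 classes kept the mouse as a block. DESeq2 1.42.0, the replicate number as a block, leaving out each mouse and other cell filters were tried as alternatives. Leaving out clusters 43 and 44, leaving out endothelial cells with genes of another class, and crossing the replicate numbers were added after seeing the data. With 2 mice per group and numbers that the labels do not tie to a litter or batch, mice were not treated as pairs.

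The members and lists were chosen with earlier results of these data known. The rule for naming took all 10 genes in every tested class; the figures show 28 classes, and the text describes those with the highest levels, those with an unadjusted p under 0.05 and others chosen after their values were seen. Other cascade genes were named where they were among the 2 with the largest fold change in a class whose groups did not overlap; the text gives their count and range and names some of them, chosen after their values were seen. Genes of like pattern needed a class mean of at least 50 CPM. The p-values rest on the spread between these mice only, which edgeR estimates in part across the genes of a class. Promoters came from RefSeq and positions from GENCODE M21. That annotation has genes of the other strand over Icam1, Vcam1, Selp and Itga4 and a coding gene, Gm49368, on the same strand as Itgam, whose reads may be split between them. Whether counting used strand is not given in the sources used here. Intervals and limits from a count of 0 cover counting error only. One gene of the wider list is not reported here.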

Additional observations from a re-analysis of the deposited data

How the results depend on the processing

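The count of the 10 genes called over the tested classes was 0 in the fit reported, with DESeq2's size factors, with doublets kept, with adhesion genes allowed in clustering, at the lower clustering resolution, with equal cells per mouse, without clusters 43 and 44, and without endothelial cells that carried genes of another class. It was 3 with no count filter (Vcam1 in mesothelial-like cells, Icam2 in adventitial fibroblast-like and in pericyte or smooth muscle-like cells) and 1 with DESeq2's test (the same Vcam1). Leaving out single mice gave 1 to 3 calls. Without placebo 1 these were Vcam1 in mesothelial-like, Icam1 in CD4 T cell-like and Icam2 in pericyte or smooth muscle-like cells. Without placebo 2 they were Vcam1 in mesothelial-like cells, Selplg in club or secretory-like cells and Itgam in conventional dendritic-like cells. Without tamoxifen 1 it was Icam2 in adventitial fibroblast-like cells, and without tamoxifen 2 Vcam1 in mesothelial-like and Selp in interstitial macrophage-like cells. A group of 1 mouse is there assumed to vary like the other group, and the cause of these changes was not tested. For the other cascade genes the count was 0, but 7 with no count filter and 0 to 4 without single mice: 4 without placebo 1, 3 without placebo 2, 1 without tamoxifen 1. The interaction of neutrophil-like with CD4 T cell-like cells gave 0 to 1 calls without single mice, and that of endothelium with stroma gave 0 in every fit run. With the replicate number as a block, 1 of the 10 genes was called, Vcam1 in mesothelial-like cells, and 1 other cascade gene, Aoc3 in adventitial fibroblast-like cells; crossing the pairs gave 1 and 0. Same-numbered mice correlated at -0.198 to 0.523 by class (median 0.0492), so the numbers were not shown to pair mice. For single genes 415 values kept direction and side of the threshold, 9 passed it and 16 changed sign. Log2 fold changes that changed sign when single mice were left out ranged -0.16 to 0.34 for Icam1 in aerocyte endothelial-like cells (all mice 0.12), -0.055 to 0.48 for Icam1 in conventional dendritic-like cells (all mice 0.20), -0.013 to 0.14 for Icam2 in aerocyte endothelial-like cells (all mice 0.066), -0.13 to 0.008 for Icam2 in general capillary endothelial-like cells (all mice -0.055), -0.054 to 0.023 for Itgam in neutrophil-like cells (all mice -0.027), -0.24 to 0.047 for Itgam in non-classical monocyte-like cells (all mice -0.10), -0.10 to 0.002 for Itgb2 in non-classical monocyte-like cells (all mice -0.045), -0.35 to 0.16 for Selp in platelet or megakaryocyte-like cells (all mice -0.12), -0.25 to 0.19 for Vcam1 in adventitial fibroblast-like cells (all mice -0.042), -0.15 to 0.54 for Vcam1 in alveolar fibroblast-like cells (all mice 0.14). With equal cells per mouse, Itgb2 in natural killer-like cells changed to 0.046 and Vcam1 in adventitial fibroblast-like cells to 0.025. No value could be given without clusters 43 and 44 for Vcam1 and Itgam in mesothelial-like and Selp in interstitial macrophage-like cells, at the lower clustering resolution for Icam1 and Icam2 in aerocyte-like cells, whose cluster took no name there, and Selp in platelet or megakaryocyte-like cells, and with equal cells per mouse for Vcam1 and Itgam in mesothelial-like cells, Itgb2 in adventitial fibroblast-like cells and that same Selp.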
